A study of Mus musculus with 2 samples.

Results

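The C1q-negative monocyte-type cells of the post-ischemic mouse kidney were 124 barcodes, 43 of them control and 81 JPI-289, out of 7077 barcodes of both libraries that passed the filters (3093 and 3984). A barcode was counted if it had at least 1000 unique molecular identifiers (UMIs), at most 50% of them from mitochondrial genes, at least 5 UMIs and at least 0.2% of its UMIs from Ms4a6c, Ly6c2, Ccr2, Fn1, F13a1 and Lyz2 together, at most 1 UMI of the C1q genes C1qa, C1qb and C1qc, at most 1 UMI of the stromal genes Dcn, Col1a1 and Col1a2, and under 2% of its UMIs from the neutrophil genes S100a8, S100a9 and Retnlg. These measured values chose the cells, so the levels of the 6 rule genes, and the low levels of the genes the rule barred, are descriptions.

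Both libraries were made from kidneys of 9-week-old male C57BL/6 mice after bilateral renal ischemia-reperfusion injury (IRI), taken 24 h after the surgery. The JPI-289 group (1 mouse) received JPI-289, an inhibitor of poly(ADP-ribose) polymerase (PARP), at 100 mg/kg into the peritoneal cavity just before reperfusion, and the control group (1 mouse) received saline by the same route, so both groups carry the ischemic injury and no uninjured kidney was analysed here. With 1 library per group there was no test between the groups: each value below compares these 2 libraries, and the 95% intervals (exact Poisson for levels, exact Clopper-Pearson for shares, exact binomial for ratios unless said otherwise) cover counting error only. The spread between mice is not known, and treatment, animal and library cannot be told apart. The control library held 38328760 UMIs and the JPI-289 library 35548396.

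Monocytes enter the injured kidney from the blood within hours of reperfusion. Classical monocytes carry Ly6C and the chemokine receptor CCR2, which responds to CCL2, whereas non-classical monocytes patrol the inside of vessels, carry little Ly6C and depend on the nuclear receptor NR4A1. After entry, monocytes can mature into macrophages, and transcripts of complement C1q are typical of the resident and mature macrophages that the rule left out. PARP1 uses NAD to modify proteins at sites of DNA damage and takes part in inflammatory transcription.

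The libraries stood apart in these cells. When the 124 cells were grouped by their expression alone (Leiden clustering with no correction between the libraries), 1 cluster held 39 control cells and 0 JPI-289 cells, another held 2 control and 55 JPI-289 cells, and the last held 2 control and 26 JPI-289 cells. The genes that lead each cluster therefore follow the library, and the clusters were given no cell type name. The control members had 357783 UMIs (median 7964 per cell, range 1596 to 17555) and the JPI-289 members 526861 (median 6442, range 1396 to 16085), and the median mitochondrial share was 1.78% and 2.25%. No member barcode occurred as a member in both libraries, and 14 barcodes passed the filters in both.

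The rule genes took 1.62% of all UMIs of the control members and 0.638% of those of the JPI-289 members. Per cell, the control members had a median rule share of 1.32% and a highest of 3.68%, while the JPI-289 members had a median of 0.480% and a highest of 2.01%. The JPI-289 members therefore lay closer to the limit of 0.2%: 15 of 81 had a share of 0.2 to 0.3%, against 4 of 43 in the control library. Just outside it, 13 JPI-289 and 4 control barcodes that met every other condition had a share of 0.1 to 0.2%. The lowest share inside was 0.208% and 0.201%, and the highest outside 0.157% and 0.187%, in the control and JPI-289 libraries. A further 66 control and 25 JPI-289 barcodes failed only the C1q condition, 5 and 6 of them with 2 to 4 C1q UMIs, and 21 and 13 failed only the neutrophil condition.

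Lyz2, which encodes the lysozyme of myeloid cells, was found in 42 of 43 control members and in 81 of 81 JPI-289 members. Its level, as the UMIs of all members summed per library and scaled to 1000000 UMIs (CPM), was 11188 CPM (95% interval 10844 to 11540.4) for the control and 3631 (3470.0 to 3797) for the JPI-289 members. Across single cells the level ranged from 0 to 294 per 10000 UMIs with a median of 95.005 among control members, and from 1.58 to 131 with a median of 28.5 among JPI-289 members. The log2 ratio of the JPI-289 over the control level was -1.62 (-1.70 to -1.54), and the cells of the libraries overlapped. Lyz2 was also lower with JPI-289 outside these cells, with a log2 ratio of -2.80 in C1q-positive macrophages, -2.23 in neutrophils and -1.68 in free RNA, the pool of barcodes with 1 to 99 UMIs. The part of a difference shared by the whole library in the monocyte-type value was not tested.

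The receptor gene Ccr2 had UMIs in 26 of 43 control and 18 of 81 JPI-289 members, at 341 and 68.3 CPM. F13a1, which encodes the A subunit of coagulation factor XIII, was found in 30 and 47 members at 1453 and 317 CPM. Ms4a6c, a member of the MS4A family of membrane proteins, was found in 37 and 50 members at 729 and 195. All 3 were lower in the JPI-289 members, with log2 ratios of -2.31, -2.19 and -1.90. Fibronectin (Fn1) was nearly level, at 2462 and 2023 CPM in 39 and 76 cells.

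Ly6c2, one of the genes for the Ly6C antigen of classical monocytes, went the other way, with 19 UMIs in 4 of 43 control members and 78 UMIs in 22 of 81 JPI-289 members. A single control cell held 16 of the 19 UMIs, and a single JPI-289 cell held 17. The log2 ratio was 1.45 (0.74 to 2.29), and 3.50 once the cell with most UMIs was left out of each library. It was 0.90, under 2-fold, once cells with 2 or more UMIs of lymphocyte, platelet, endothelial or mast cell genes were left out. Ly6c2 and its near-identical neighbour Ly6c1 can share reads, and Ly6c1 had 4 and 1 UMIs, so the split between them is uncertain. At least 1 UMI of Ly6c2 or Ccr2 was present in 26 control and 32 JPI-289 members, and both genes in 4 and 8.

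**Figure D1:**
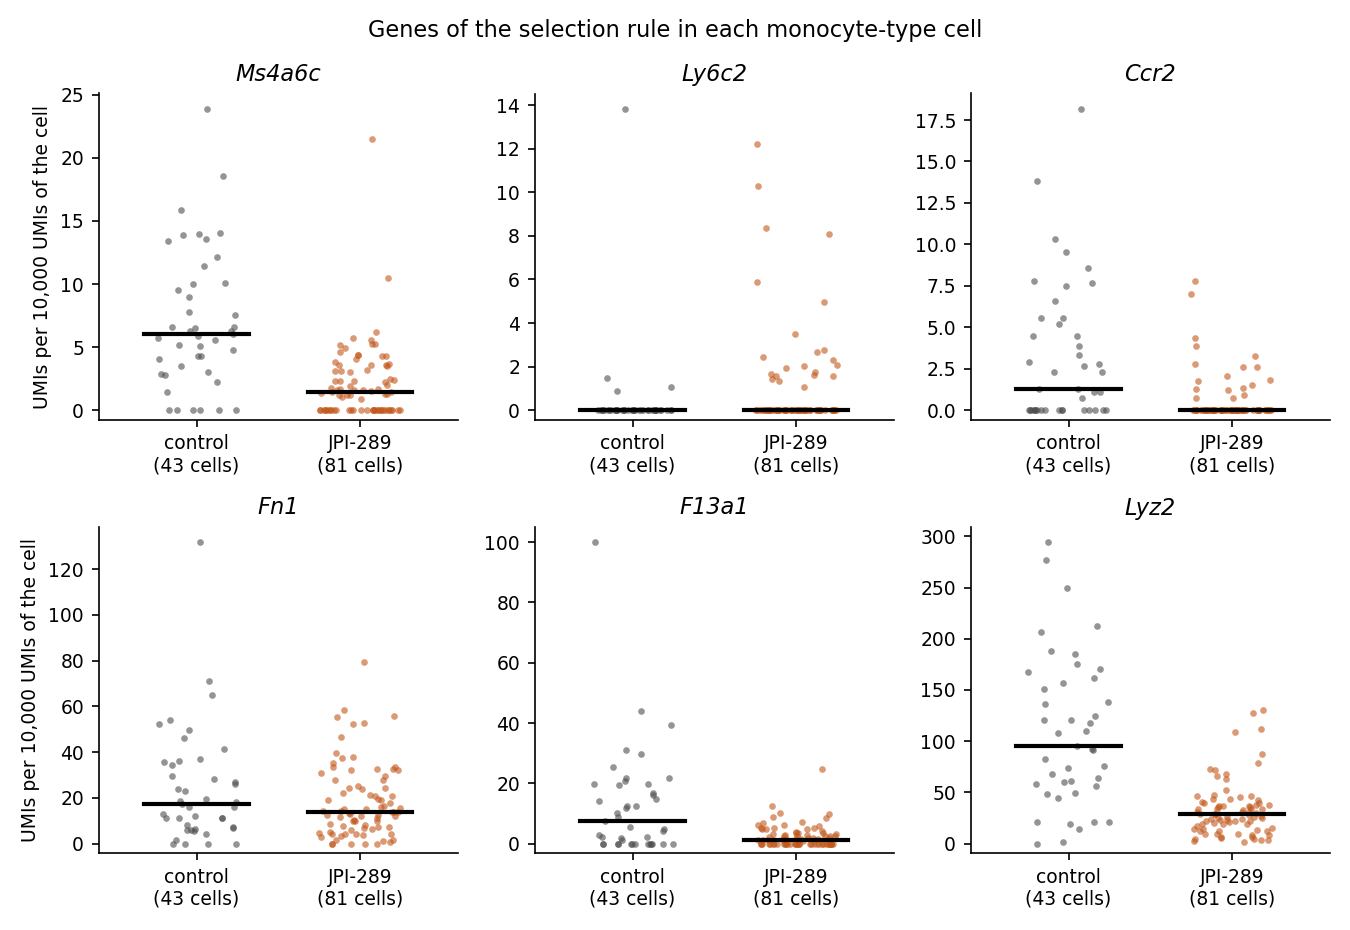
Level of each of the 6 rule genes in each monocyte-type cell, in UMIs per 10000 UMIs of the cell (y axis, linear), for the control library (43 cells) and the JPI-289 library (81 cells). Each point is a cell and the black bar is the median; for Lyz2 the medians are 95.005 and 28.5, and most cells have no Ly6c2 UMI in either library.

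The rule genes lie on chromosome 10 (Lyz2, 117277331 to 117282321, minus strand), 9 (Ccr2, 124101950 to 124113557, plus strand), 13 (F13a1, 36867178 to 37050244, minus strand), 19 (Ms4a6c, 11469366 to 11482192, plus strand), 1 (Fn1, 71585520 to 71653200, minus strand) and 15 (Ly6c2, 75108158 to 75111970, minus strand) of the GRCm38 build, as protein-coding genes of GENCODE release M21.

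The label of infiltrating monocytes was checked against the markers of other cells. The 6 rule genes chose the cells and cannot check the label; as a description, they took 0.770% and 0.147% of the UMIs of C1q-positive macrophages in the control and JPI-289 libraries, 0.163% and 0.0453% in neutrophils, and 0.0231% and 0.0105% in free RNA. The control macrophages thus had a larger share of them than the JPI-289 members. Of the 13 listed dendritic cell genes 2 were measured, and Itgax, also an integrin of monocytes, was at least 2-fold lower. The list had 178 and 221 UMIs, with at least 1 UMI in 40 of 43 and 63 of 81 cells, and Napsa, an aspartic protease gene, gave 154 and 208 of them. Of the other genes of the list, Flt3 had 2, Zbtb46 1, Klrd1 3 and Clec10a 3 UMIs over both libraries, and the other 7, among them Xcr1, Clec9a, Cd209a and Ccr7, had no UMI in either library, which allows a level of up to 8.38 and 5.69 CPM. The lymphocyte list had 3 and 8 UMIs over all members, the stromal list 8 and 5, and the mast cell and basophil list 0 and 0. Of the erythroid list, the members had 18 and 32 UMIs, led by Hbb-bs with 15 and 22. The lists of lymphocytes, mast cells and, by the rule, stroma were thus at or near 0, and the dendritic cell list was not, owing to Napsa. A few members with many UMIs of the MHC class II genes, described below, had no Chil3 UMI. Whether they are dendritic cells was not tested. Cells inside vessels and cells that had entered the tissue cannot be told apart in a whole-kidney suspension.

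Some members carried transcripts of another kind. In the control library 1 cell had 66 of the 84 endothelial UMIs of all members and no Lyz2 UMI; the 10 endothelial genes had 11 UMIs in the JPI-289 members, at most 2 in a cell. The tubule list of 17 genes had 366 and 478 UMIs (1023 and 907 CPM), led by Gpx3 with 209 and 272, against 24788 and 15199 CPM in free RNA. The platelet list had 582 and 392 UMIs, of which Pf4 had 527 and 383 and Ppbp 29 and 5. Pf4 is also known in monocytes and macrophages. A control cell of 1596 UMIs held 70 platelet UMIs, 37 of them Pf4, against 5 rule UMIs, the fewest the rule allows. A JPI-289 cell of 1480 UMIs held 29 platelet UMIs, 24 of them Pf4, against 5 rule UMIs, all Lyz2. Neither cell had a Chil3 UMI, and their label as monocyte-type cells is uncertain. The neutrophil list of 14 genes had 1894 and 1712 UMIs (5294 and 3249 CPM), led by S100a8 with 926 and 597, and Ly6g, the antigen that defines mouse neutrophils, had none. The part of these cells and transcripts in the ratios below was not tested, beyond the values given without them.

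The first comparison was of the number of monocyte-type cells. They made up 1.39% (1.01 to 1.87) of the passing control barcodes and 2.03% (1.62 to 2.52) of the passing JPI-289 barcodes, a ratio of 1.46 (0.998 to 2.17), whose counting interval includes equal shares. Per C1q-positive macrophage, of which there were 106 and 110, the monocyte-type cells numbered 0.406 and 0.736, and the ratio of JPI-289 over control was 1.82 (1.15 to 2.86). Per neutrophil, of which there were 155 and 539, they numbered 0.277 and 0.150, a ratio of 0.542 (0.359 to 0.817); these latter intervals use a normal approximation to the log of the cell counts. Monocyte-type cells were thus more numerous in relation to macrophages and less numerous in relation to neutrophils in the JPI-289 library. The order of the shares depended on the limit for the rule genes: at 0.5% in place of 0.2%, 37 control and 39 JPI-289 cells were left, which were 1.20% (0.844 to 1.65) and 0.979% (0.697 to 1.34) of passing barcodes, and 0.349 and 0.355 per macrophage. Per neutrophil they numbered 0.239 and 0.0724 at that limit.

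The second comparison was of gene levels in the monocyte-type cells. Of 5237 genes with at least 20 UMIs over both libraries, 568 (10.8%) were at least 2-fold higher and 606 (11.6%) at least 2-fold lower in the JPI-289 members, and the median log2 ratio of all of them was 0.08. These shares are the background against which the counts of each gene list below are to be read. Log2 ratios were taken of the summed UMIs plus 0.5 over the total, JPI-289 over control.

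**Figure D2:**
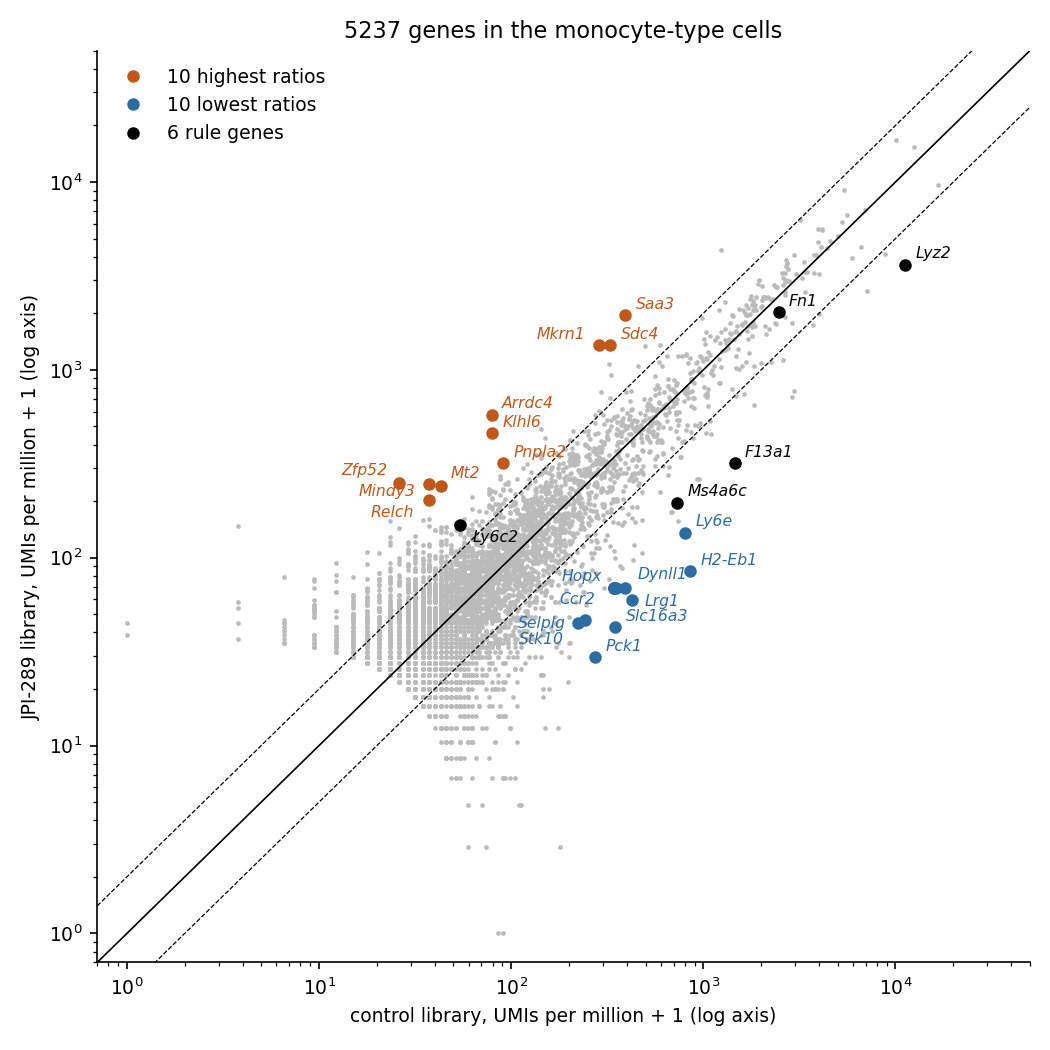
Level of each of the 5237 genes in the monocyte-type cells, in CPM plus 1, in the control library (x axis, log) and the JPI-289 library (y axis, log); the solid line marks equal levels and the dashed lines 2-fold differences. Orange and blue points are the 10 genes with the highest and lowest ratios among those with at least 100 UMIs, Ccr2 among the latter, and black points are the other rule genes; Saa3 is at 391 and 1949, and Lyz2 is at 11188 and 3631.

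Of the genes with at least 100 UMIs, the highest ratios belonged to Zfp52, Arrdc4, Mindy3, Klhl6, Mt2, Relch, Saa3, Mkrn1, Sdc4 and Pnpla2. Zfp52, which encodes a zinc finger protein, had 9 UMIs in 7 control cells and 131 in 58 JPI-289 cells, a log2 ratio of 3.23 (2.34 to 4.47). Arrdc4, an arrestin domain protein that limits glucose uptake, was at 78.3 CPM for the control and 577 for the JPI-289 members, a log2 ratio of 2.86 (2.32 to 3.50). It was found in 16 of 43 and 73 of 81 cells, and with each cell thinned to 1000 UMIs in 4.65% and 45.7%. In single control cells its level was 0 to 5.91 per 10000 UMIs with a median of 0, and in JPI-289 cells 0 to 22.2 with a median of 5.15. After the same thinning, 0.857% and 1.33% of proximal tubule barcodes had an Arrdc4 UMI. The share of cells with a UMI was thus larger in the JPI-289 members, with overlapping ranges of the level.

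The acute-phase gene Saa3, which encodes serum amyloid A3, differed in another manner. It was at 391 CPM for the control and 1949 for the JPI-289 members, a log2 ratio of 2.31 (2.06 to 2.58), and had UMIs in 18 and 44 cells. The single-cell median was 0 and 1.87 per 10000 UMIs, and the highest cell was at 48.0 and 119. Many cells of both libraries thus had no Saa3 UMI, which does not limit how many expressed it, and the highest level was in a JPI-289 cell. After thinning, 27.9% of control and 39.5% of JPI-289 cells had a UMI, and 0% and 0% of proximal tubule barcodes, which are not known for Saa3. Its log2 ratio was 4.12 in C1q-positive macrophages and -2.37 in neutrophils.

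The metallothioneins Mt1 and Mt2, small cysteine-rich proteins that bind zinc and copper, were higher together. Mt1 was at 1229.8 CPM for the control and 4322 for the JPI-289 members, with a log2 ratio of 1.81 (1.67 to 1.96), and Mt2 at 41.9 and 239, with a log2 ratio of 2.47 (1.74 to 3.39). Mt1 was found in 35 of 43 and 81 of 81 cells, with a single-cell median of 4.48 and 27.8 per 10000 UMIs. Free RNA held 1898 and 5841 CPM of Mt1, more than the members in each library. With the estimated free RNA subtracted the log2 ratio of Mt1 was 1.81.

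The upstream sequences of 4 genes (Mt1, Mt2, Saa3 and Arrdc4) are shown because these genes were higher in the JPI-289 members and are known to be induced by metals, inflammation or glucose. Each is the 250 bases before the transcription start of the RefSeq annotation of GRCm38.p6, read 5′ to 3′ on the gene's strand, and capitals mark the letters of the motif searched on both strands. The genes and the motifs were chosen after the values were seen. For Mt1 (chr8:94178839-94179088, plus strand) and Mt2 (chr8:94172368-94172617, plus strand) the letters were those of the metal response element core, TGCACNC or TGCGCNC. For Saa3 (chr7:46715677-46715926, minus strand) they were TTNNGCAA, the core bound by C/EBP factors, and for Arrdc4 (chr7:68749239-68749488, minus strand) CACGTG, the E-box that is part of carbohydrate response elements.
Mt1: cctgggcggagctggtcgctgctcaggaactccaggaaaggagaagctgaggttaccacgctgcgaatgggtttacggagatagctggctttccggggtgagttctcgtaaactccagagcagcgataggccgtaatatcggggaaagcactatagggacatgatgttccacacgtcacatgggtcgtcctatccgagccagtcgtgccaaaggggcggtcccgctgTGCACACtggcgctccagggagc
Mt2: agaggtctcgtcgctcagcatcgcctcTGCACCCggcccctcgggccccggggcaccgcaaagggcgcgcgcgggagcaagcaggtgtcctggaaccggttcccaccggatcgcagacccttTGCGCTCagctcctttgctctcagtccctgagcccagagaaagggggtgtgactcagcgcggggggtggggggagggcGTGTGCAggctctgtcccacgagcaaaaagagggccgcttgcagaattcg
Saa3: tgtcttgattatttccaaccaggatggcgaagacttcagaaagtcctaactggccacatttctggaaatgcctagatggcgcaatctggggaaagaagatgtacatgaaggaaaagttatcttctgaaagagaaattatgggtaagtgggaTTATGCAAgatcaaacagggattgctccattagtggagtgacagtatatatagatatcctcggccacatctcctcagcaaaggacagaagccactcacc
Arrdc4: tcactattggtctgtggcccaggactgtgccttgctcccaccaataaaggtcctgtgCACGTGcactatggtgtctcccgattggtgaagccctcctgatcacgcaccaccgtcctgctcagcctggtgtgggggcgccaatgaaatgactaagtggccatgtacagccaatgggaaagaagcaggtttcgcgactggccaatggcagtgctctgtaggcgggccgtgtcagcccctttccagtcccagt
The metal response letters occurred 1 time before Mt1 and 3 times before Mt2, and at least 1 time in 21.4% and at least 3 times in 1.26% of 32851 promoters of that length. TTNNGCAA occurred 1 time before Saa3 and in 9.56% of promoters, and CACGTG 1 time before Arrdc4 and in 6.02%. The motifs do not overlap each other in these sequences. A match describes the letters and does not show that a factor binds there, and bases after the annotated start, where transcripts that start further downstream have their promoter, were not searched.

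Sdc4, which encodes the heparan sulfate proteoglycan syndecan-4, was at 327 CPM for the control and 1349.5 for the JPI-289 members, in 27 of 43 and 74 of 81 cells. Its log2 ratio was 2.04 (1.76 to 2.34), against 0.46 in C1q-positive macrophages and 0.12 in neutrophils. Pnpla2, the lipase that starts triglyceride breakdown, was at 89.4 and 319 CPM, with log2 ratios of 1.82 in the monocyte-type cells, 0.96 in macrophages and 0.04 in neutrophils. The ratios of Sdc4 and Pnpla2 were thus smaller in those other leukocytes. Zfp52, Arrdc4, Klhl6, Mt2 and Relch had log2 ratios over 1 in all 3 cell types.

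The lowest ratios belonged to H2-Eb1, Pck1, Slc16a3, Lrg1, Ly6e, Dynll1, Selplg, Hopx, Stk10 and Ccr2. Slc16a3, the lactate exporter MCT4, was at 347 CPM in 35 control cells and 41.8 in 19 JPI-289 cells, a log2 ratio of -3.03 (-3.78 to -2.39). Ly6e, a GPI-anchored protein that interferon can induce, was at 802 and 135. Dynll1, the dynein light chain, was at 389 and 68.3, and Lrg1, a secreted leucine-rich glycoprotein, at 425 and 58.8. Slc16a3, Lrg1, Ly6e, Dynll1, Hopx and Selplg were also at least 2-fold lower in C1q-positive macrophages. Pck1 is a gluconeogenic gene of the proximal tubule: it was at 271 and 28.5 CPM in the members and at 5041 and 709.8 in free RNA.

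**Figure D3:**
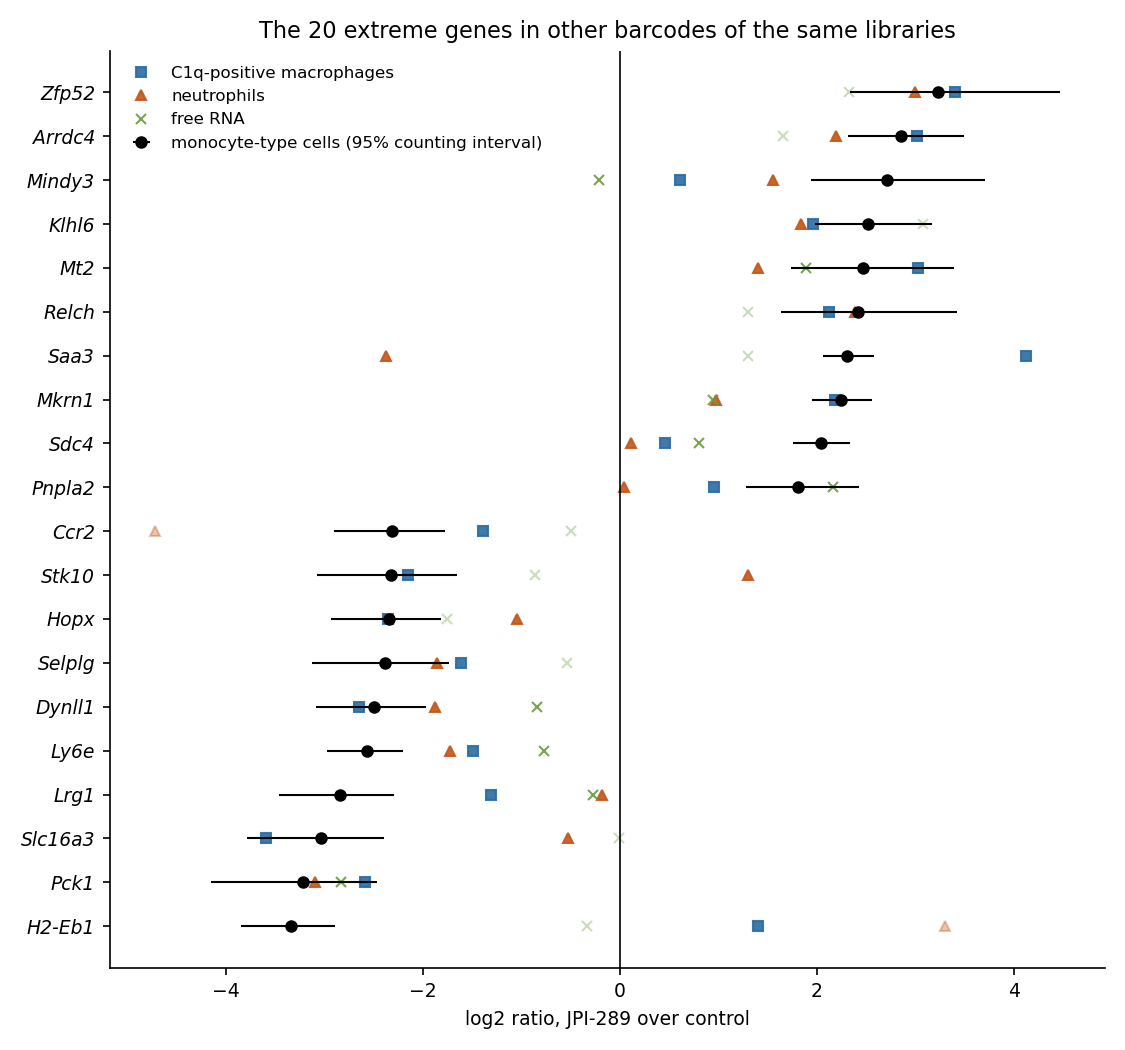
Log2 ratio of JPI-289 over control (x axis) of the 20 genes with the highest and lowest ratios in the monocyte-type cells (black, with 95% counting interval), beside the ratio of the same gene in C1q-positive macrophages (squares), neutrophils (triangles) and free RNA (crosses) of the same libraries; pale symbols rest on under 30 UMIs. Zfp52 and Arrdc4 lie above 0 in all 4, and Saa3 and Stk10 lie on opposite sides in monocyte-type cells and neutrophils.

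**Figure D4:**
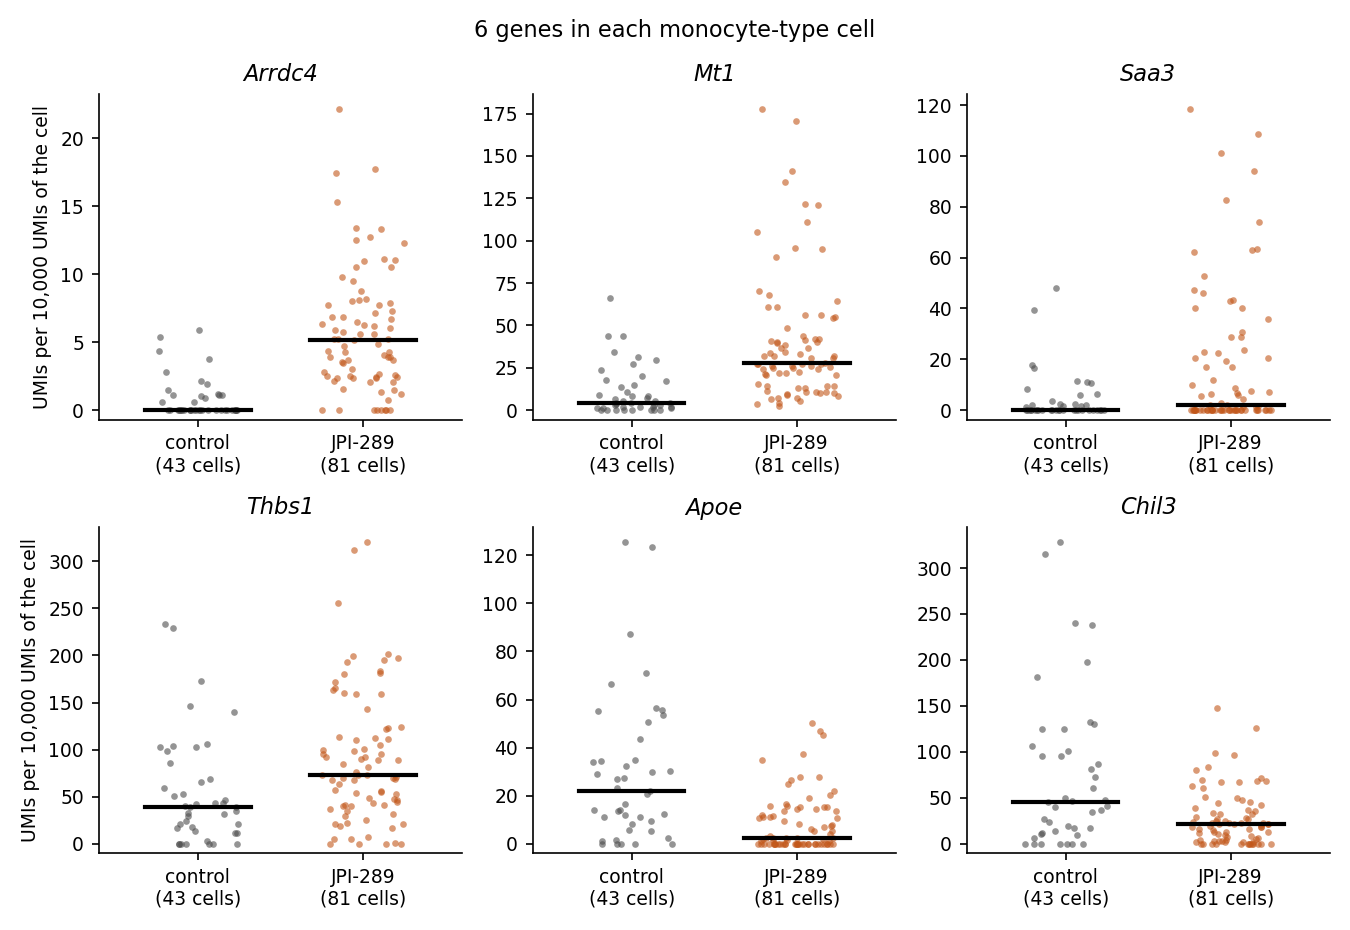
Level of 6 genes in each monocyte-type cell, in UMIs per 10000 UMIs of the cell (y axis, linear), in the control library (43 cells) and the JPI-289 library (81 cells). Each point is a cell and the black bar is the median; the medians of Mt1 are 4.48 and 27.8, those of Apoe 22.0 and 2.41, and the cells of the libraries overlap for each gene.

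Of 17 measured genes known from classical monocytes, 0 were at least 2-fold higher and 6 at least 2-fold lower, against 10.8% and 11.6% of all genes, with a median log2 ratio of -0.37. Chil3, a chitinase-like protein of monocytes and alveolar macrophages, was at 7127 CPM for the control and 2634 for the JPI-289 members, a log2 ratio of -1.44 (-1.53 to -1.34) that was -0.88 without the members that had a UMI of the non-classical genes described next, and was lower also in macrophages (-3.76), neutrophils (-2.03) and free RNA (-1.25). Thbs1, which encodes the matrix protein thrombospondin-1, was at 5366 and 9065 CPM, and Gsr, the glutathione reductase, at 984 and 1881. Both were higher by less than 2-fold, with log2 ratios of 0.76 and 0.93. Cd14, the co-receptor for bacterial lipopolysaccharide, was at 3362 and 2602 and the transcription factor gene Cebpb at 3776 and 3268.

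The genes of non-classical monocytes were lower in the JPI-289 members. Of 12 listed genes 9 were measured, and 8 of them were at least 2-fold lower and 0 higher. Their median log2 ratio was -2.14 (range -2.63 to -1.30 over the alternatives that gave a list median). Thinning, leaving out the members with a non-classical UMI and a gene minimum of 100 UMIs gave none. Treml4, a receptor of the TREM family, had 32 UMIs in 16 of 43 control cells and 3 UMIs in 2 of 81 JPI-289 cells, a log2 ratio of -3.77 (-6.32 to -2.30). Adgre4, an adhesion receptor of the EGF-TM7 family, had 38 UMIs in 14 and 5 in 4 cells, a log2 ratio of -3.37 (-5.19 to -2.14). Nr4a1, the nuclear receptor these monocytes need, was at 1031 and 459 CPM, and Itgal, the alpha chain of the integrin LFA-1, at 120.2 and 49.3. Nr4a1 is also an immediate early gene, and with each cell thinned to 1000 UMIs its log2 ratio was -0.17.

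A UMI of at least 1 of the genes Treml4, Adgre4, Ear2, Spn and Ace, chosen from the list after the values were seen, was present in 24 of 43 control members (55.8%, 39.9 to 70.9) and 12 of 81 JPI-289 members (14.8%, 7.90 to 24.4). With each cell thinned to 1000 UMIs the shares were 27.9% (15.3 to 43.7) and 3.70% (0.770 to 10.4). Under the same thinning, 6.60% and 0.909% of C1q-positive macrophages, 1.29% and 2.60% of neutrophils and 1.33% and 1.33% of proximal tubule barcodes had such a UMI, the latter in cells known to express Ace. The 5 genes were seen to be lower with JPI-289 before they were chosen, so the gap between the members' shares restates that choice. Chil3, Lyz2 and Fn1 were present on both sides of this split. Ccr2 was at 337 CPM in control members with a non-classical UMI and 346 in those without, and at 114 and 62.3 in the JPI-289 members. Ly6c2 had 0 control and 76 JPI-289 UMIs in the members without such a UMI. Lyz2 was at 12473 CPM in control members with a non-classical UMI and 9637 in those without, and at 2797 and 3741 in the JPI-289 members, the opposite order. F13a1 was at 756 and 2295 in the control and at 97.6 and 346 with JPI-289. Among the members without such a UMI, 19 control and 69 JPI-289 cells, the log2 ratios were -1.37 for Lyz2, 2.29 for Arrdc4, 1.71 for Saa3, 1.39 for Mt1, -0.12 for Itgal and -0.04 for Nr4a1.

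**Figure D5:**
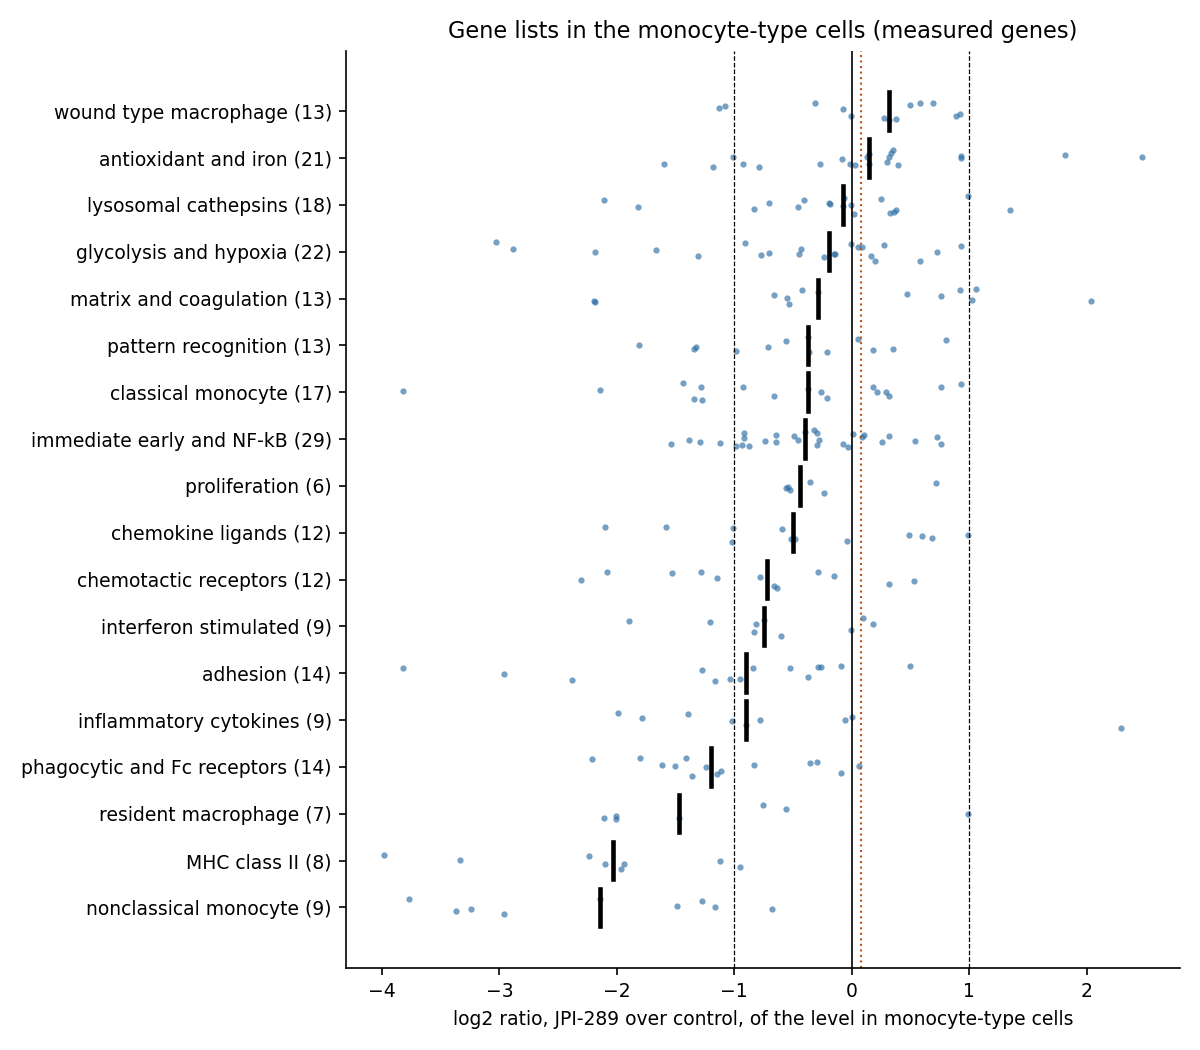
Log2 ratio of JPI-289 over control (x axis) of each measured gene of 18 lists in the monocyte-type cells, with the number of measured genes in parentheses. Each point is a gene, black bars are the medians of the lists, dashed lines mark 2-fold differences and the dotted line is the median of all 5237 genes (0.08); the medians range from -2.14 for the non-classical list to 0.32 for the list of wound-type macrophages.

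Receptors by which monocytes sense chemoattractants and growth factors were at least 2-fold lower for 5 of 12 measured genes and at least 2-fold higher for 0, with a median log2 ratio of -0.72. Ccr2, a rule gene that chose the cells, was among the lower ones, and without it 4 of 11 were lower (median -0.66). C5ar1, the receptor for complement C5a, was at 763 and 344 CPM, a log2 ratio of -1.15 (-1.43 to -0.87). Ccr1 had a log2 ratio of -0.66, and Cxcr4, the receptor for CXCL12, of 0.53 (-0.25 to 1.39). Of 14 measured adhesion genes 6 were at least 2-fold lower and 0 higher (median -0.90): Selplg, the ligand of P-selectin, was at 240.4 and 45.6 CPM, while the integrin chains Itgam and Itgb2, which pair as Mac-1, had log2 ratios of -0.26 and -0.52.

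Phagocytic and Fc receptors were at least 2-fold lower for 9 of 14 measured genes and higher for 0, with a median log2 ratio of -1.20 (-1.42 to -0.99 over the alternatives). Fcgr1, the high-affinity IgG receptor, was at 168 and 47.5 CPM in 15 and 14 cells, a log2 ratio of -1.80 (-2.56 to -1.13). Cd300a, an inhibitory receptor for phospholipids, was at 263 and 85.4, a log2 ratio of -1.61 (-2.17 to -1.09). The adaptor genes that carry the signal of many such receptors stayed close to level: Tyrobp was at 3980.1 and 3249, Fcer1g at 2664 and 2502, and the low-affinity receptor Fcgr3 at 858 and 898. In C1q-positive macrophages the log2 ratio was -1.81 for Fcgr1 and -2.05 for Cd300a. Of 13 measured pattern recognition genes, 3 were at least 2-fold lower and 0 higher (median -0.37), with Tlr2, a receptor for bacterial lipoproteins, at 232 and 91.1 and Tlr4, the receptor for lipopolysaccharide, at 44.7 and 79.7 (log2 ratio 0.81, -0.03 to 1.76).

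Of 9 measured inflammatory cytokine genes, 1 was at least 2-fold higher and 4 at least 2-fold lower, with a median log2 ratio of -0.90. The interleukin-1 genes parted. Il1b was at 2239 CPM for the control and 1103 for the JPI-289 members, in 30 of 43 and 41 of 81 cells, a log2 ratio of -1.02 (-1.18 to -0.87), and Il1a had 8 UMIs in 4 and 61 UMIs in 16 cells, a log2 ratio of 2.30 (1.30 to 3.65). The Il1b ratio lay at the 2-fold limit and was -0.68 once cells with 2 or more UMIs of lymphocyte, platelet, endothelial or mast cell genes were left out. Osm, a cytokine of the interleukin-6 family, was at 257 and 74.0 CPM. Tnf was level at 117 and 118 CPM (log2 ratio 0.00, -0.58 to 0.60), but its log2 ratio was -1.02 with the rule genes at 0.5% or more. Il6 had 4 and 1 UMIs, Vegfa 20 and 36, and Il10, Il4 and Ifng had none, which allows up to 8.38 and 5.69 CPM.

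Chemokine ligands were at least 2-fold lower for 4 of 12 measured genes and at least 2-fold higher for 0 (median -0.50, which turned to 0.62 under the filter named next). Ccl2, the ligand of CCR2, was at 1079 CPM in 18 control cells and 535 in 27 JPI-289 cells, a log2 ratio of -1.01 (-1.24 to -0.79), and its neighbour Ccl7 had 135 UMIs in 7 and 46 in 3 cells. In the control, 1 cell held 80 of the 386 Ccl2 UMIs and 1 held 59 of the Ccl7 UMIs. Once cells with UMIs of other cell types were left out the log2 ratios turned to 0.76 for Ccl2, 0.62 for Ccl7 and 0.53 for Ccl4; that filter counts Pf4, which was left with 1 and 8 UMIs and no ratio, and removes 12 of 43 and 19 of 81 cells. In the cells kept, 1 JPI-289 cell held all 15 Ccl7 UMIs of its library and 1 held 29 of 41 Ccl4 UMIs, without which the Ccl4 ratio was -1.19, while Ccl2 without its highest JPI-289 cell was at 0.59. The list median under that filter is the Ccl7 value. The neutrophil attractant Cxcl2 was at 5970.1 and 3946 CPM, Ccl6 at 2661 and 2589, and Ccl5 had 1 UMI in each library.

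The genes of MHC class II present antigen to helper T cells. Their list, which also holds Cd80 and Cd86, had 7 of 8 measured genes at least 2-fold lower and 0 higher. The median log2 ratio was -2.03, with Cd86 (-1.12) among the lower genes and Cd80 at -0.95. The values of H2-Aa, H2-Ab1, H2-Eb1 and Cd74 rested on few cells. All 812 control UMIs of H2-Aa, H2-Ab1 and H2-Eb1 were in 2 of 43 cells, 693 of them in 1 cell, and 211 of 218 JPI-289 UMIs were in 3 of 81 cells. Cd74, the invariant chain that escorts MHC class II, had 1045 of 1057 control UMIs and 369 of 405 JPI-289 UMIs in the same cells. None of these cells had a Chil3 UMI. The control cell with 693 had 21 Ccr2, 2 Lyz2 and 0 Fn1 UMIs, and the other control cell had 186 Lyz2 and 46 Fn1 UMIs. The JPI-289 cell with most, 139, had 3 Lyz2 and 17 Fn1 UMIs. The monocyte label of these cells is thus uncertain. Without those 5 cells, a choice made after the values were seen, the log2 ratio of Cd74 was 0.93 in place of -1.94, on 12 and 36 UMIs, of which 1 JPI-289 cell held 28; without that cell too it was -1.15. H2-Ab1 (-2.23 with all members) and H2-Eb1 (-3.34) then had 0 control UMIs, with 4 and 0 JPI-289 UMIs, and no ratio could be given. Most monocyte-type cells thus had no UMI of H2-Aa, H2-Ab1 or H2-Eb1 in either library. Of the interferon-stimulated genes 2 of 9 measured were at least 2-fold lower (Bst2, -1.89, and Ifi27l2a, -1.21) and 0 higher, with a list median of -0.75. Without the members that had a non-classical UMI, Ifi27l2a was at 0.33 and the list median at -0.0417. The median was -0.15 without the cells that had UMIs of other cell types, and Bst2 had 2 UMIs in each library with thinned cells, too few for a ratio.

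Of 21 measured antioxidant and iron genes, 2 were at least 2-fold higher, which were Mt1 and Mt2, and 3 lower, with a median log2 ratio over all 21 of 0.15. Hmox1, the haem-degrading oxygenase, was at 1806 and 2249 CPM, ferritin heavy chain (Fth1) at 12468 and 15327, and Ftl1, the light chain, at 6920.4 and 7066. Gpx1, a glutathione peroxidase, was at 3983 and 1976, at the 2-fold limit with a log2 ratio of -1.01 (-0.43 without the members that had a non-classical UMI), and Slc11a1, the phagosomal metal exporter NRAMP1, was at 422 and 186. Of 22 measured genes of glycolysis and hypoxia, 5 were at least 2-fold lower and 0 higher (median -0.20). The glucose transporter gene Slc2a1 had 52 and 10 UMIs, a log2 ratio of -2.88 (-4.08 to -1.94), whereas the enzyme genes Gapdh and Pkm had log2 ratios of 0.05 and 0.19. Hilpda, a hypoxia-induced lipid droplet protein, was at 299 and 573 CPM, and Plin2, a coat protein of lipid droplets, at 643 and 1188 (log2 ratios 0.93 and 0.88). The Hilpda ratio was 0.23 without the members that had a non-classical UMI and 2.06 without the cells that had UMIs of other cell types.

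Matrix and coagulation genes had 3 of 13 measured at least 2-fold higher and 2 lower (median -0.28). The list holds the rule genes F13a1 and Fn1; without them 3 of 11 were higher and 1 lower, and the median turned to 0.47. With Sdc4, the higher ones were Mmp9 and Timp1, an inhibitor of metalloproteinases, which had 13 and 41 UMIs and a log2 ratio of 1.06 (0.17 to 2.12). Timp1 was at 0.14 without the members that had a non-classical UMI. The lower ones were F13a1 and the collagenase gene Mmp8, at 478 and 104 CPM; Mmp8 and Mmp9 are also neutrophil genes. Tgfbi, a matrix protein of monocytes, was at 1778 and 2469. The list of wound-type macrophages had 0 of 13 measured genes at least 2-fold higher and 2 lower, with a median log2 ratio of 0.32 that was 0.84 without the cells that had UMIs of other cell types and -0.42 without those that had a non-classical UMI. In this list Lgals3, the galectin-3 gene, was at 1920.2 and 2872 and Ctsl, the protease cathepsin L, at 1616 and 2094. Of 18 lysosomal genes, 1 was at least 2-fold higher and 2 lower, among them the protease gene Ctsc (-1.82), with a median of -0.07.

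Of the list of resident macrophages, whose C1q genes the rule barred, 4 of 7 measured genes were at least 2-fold lower and 0 higher in the JPI-289 members (median -1.47). The median was -0.79 with the rule genes at 0.5% or more and -1.99 with neutrophil genes under 0.5%. Cd63, of the same list, had a log2 ratio of 0.99. It was 0.27 without the members that had a non-classical UMI and 1.73 without the cells that had UMIs of other cell types. Apoe, the lipid carrier apolipoprotein E, was at 2884 CPM in 38 of 43 control cells and 716 in 49 of 81 JPI-289 cells, a log2 ratio of -2.01 (-2.19 to -1.84). Its single-cell median was 22.0 and 2.41 per 10000 UMIs, and its log2 ratio was -0.80 in C1q-positive macrophages and -1.23 in free RNA. Immediate early and NF-kB genes had 4 of 29 measured at least 2-fold lower and 0 higher (median -0.40), with Junb at 2091 and 1701, Jun at 375 and 621 and the inhibitor gene Nfkbia at 1789 and 2224 CPM. Proliferation genes had 0 of 6 measured past 2-fold in either direction (median -0.44, or 0.43 over 5 genes with thinned cells).

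The PARP family, the target of JPI-289, was sparse in these cells. Parp1 had 6 UMIs in 6 control cells and 4 UMIs in 4 JPI-289 cells, too few for a difference to be detectable at this depth (log2 ratio -1.09, -3.41 to 0.93). Of 18 listed genes of the family and of NAD metabolism 4 were measured, and 0 were past 2-fold in either direction (median 0.10): the tankyrase genes Tnks and Tnks2 had log2 ratios of 0.47 (-0.55 to 1.63) and 0.37 (-0.33 to 1.13), and Parg, which removes poly(ADP-ribose), of -0.81 (-2.19 to 0.52). Inhibition of the enzyme would not be seen in these values, which count transcripts.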

How the data were processed

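Single kidney cells were sequenced in 1 control and 1 JPI-289 library with a droplet kit for transcript 5′ ends. The counts deposited by the authors were raw UMI numbers from Cell Ranger (5.0.1 per the submitters' notes, 4 per the headers of the matrices) on mm10, for 32285 genes and every barcode of the kit, with no cells called. Barcodes were chosen by the rule given above, and no doublet caller was run. C1q-positive macrophages had at least 5 C1q UMIs making up 0.2%, and neutrophils at least 2% of UMIs from S100a8, S100a9 and Retnlg. UMIs were summed per library, and barcodes of 1 to 99 UMIs stood for free RNA. Thinning drew 1000 UMIs per cell without replacement. Leiden clustering used 2000 variable genes, 20 components, 15 neighbours and resolution 0.5. The members, gene lists and tests were chosen with earlier results of these data known. The genes named are the rule genes, Parp1 and 8 cytokine genes, per list the 3 with most UMIs and the 2 most different each way among those with at least 30 UMIs, and the 10 most different each way among those with at least 100, without mitochondrial, haemoglobin and predicted genes; Mmp9, Ear2, Spn, Ace, Ly6c1, H2-Aa and genes at 0 were named after their values were seen. Some genes of the lists are counted but not reported here by name. The steps were tested on simulated data. Counting and intervals were done with scipy 1.17.1 and numpy 2.4.6 in Python 3.11.15, and clustering with leidenalg 0.10.2 through scanpy 1.11.5.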

Additional observations from a re-analysis of the deposited data

Results flagged for a closer look

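A few genes were at least 2-fold lower or higher in the monocyte-type cells and at least 2-fold in the opposite direction in another leukocyte class of the same libraries; the difference between the classes was not tested, since there was 1 library per group. Saa3 had a log2 ratio of JPI-289 over control of 2.31 in monocyte-type cells and -2.37 in neutrophils. Stk10, a kinase of lymphocytes and other blood cells, had -2.32 and 1.31 in the same classes. Against C1q-positive macrophages, Cd74 had -1.94 in monocyte-type cells and 1.84 in macrophages, H2-Ab1 -2.23 and 1.84, and H2-Eb1 -3.34 and 1.40, where the monocyte-type values rest on 2 control and 3 JPI-289 cells. Ptgs2, which encodes cyclooxygenase-2, had -1.40 and 1.23, on 72 and 40 UMIs in the monocyte-type cells; without the cells that had 2 or more UMIs of other cell types its ratio there was -0.70, under 2-fold, and thinning left 5 UMIs in each library, too few for a ratio.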

How the results depend on the processing

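No paired analysis was possible because each group has 1 library, and no library could be left out for the same reason. With the rule genes at 0.5% or more, log2 ratios (JPI-289 over control) moved from 0.55 to -0.29 for the share of barcodes, from 0.86 to 0.0225 per macrophage and from -0.88 to -1.72 per neutrophil. The 568 higher and 606 lower genes became 79 and 100 of 1401 genes with a minimum of 100 UMIs, 1200 and 1553 of 8561 with a minimum of 5, and 104 and 100 of 1006 with cells thinned to 1000 UMIs, where fewer or more genes were measured by construction; centring on the median gave 488 and 671. Leaving out members with 2 or more UMIs of other cell types, of which Pf4 is one, moved the median of the wound-type list from 0.32 to 0.84 and that of the chemokine ligands from -0.50 to 0.62, and turned Ccl2 to 0.76, Ccl4 to 0.53 and Ccl7 to 0.62, the last 2 on 1 JPI-289 cell each. Leaving out members with non-classical UMIs moved those medians to -0.42 and -1.09 and turned Ifi27l2a to 0.33; the cause was not tested. Leaving out MHC class II-high members turned Cd74 to 0.93, or -1.15 without 1 more JPI-289 cell, and neutrophil genes under 0.5% turned S100a8 to 0.34. These 6 turns of single genes were the only ones among 1104 values of the 68 named genes past 2-fold. No ratio was given for 81 values of 55 named genes, where an alternative left under 20 UMIs or a library at 0. Thinning and leaving out the rule genes of a list were chosen after seeing the data. So were the alternatives that left out MHC class II-high cells, members with a non-classical UMI or the highest cell of each gene. Other list medians that turned were proliferation with thinned cells (0.43 for -0.44), wound-type with the rule genes at 0.5% (-0.0427 for 0.32) and lysosomal (-0.0704), at 0.106 without UMIs of other cell types, 0.0541 with equal cell weights and 0.0516 thinned. Depth limits the genes of few UMIs: thinning left Slc2a1 with 2 UMIs in each library, too few for a ratio.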
